A study of Mus musculus with 20 samples.

Results

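Hippocampal RNA from male mice, sequenced as 20 libraries, was divided by its content of Ttr, the transcript of transthyretin, which is the leading secreted product of the choroid plexus. Libraries with at least 500 CPM of Ttr (counts per gene scaled to a library total of 1000000) are called choroid-rich, and those below 500 CPM choroid-poor. Of the 20 libraries, 11 were choroid-rich and 9 were choroid-poor. The series holds 5 libraries in each of 4 genotypes, all C57BL/6J males at 9 months of age: WT, PS19, and the KO of C3aR alone (C3aR KO) or with PS19 (PS19/C3aR KO). C3aR KO stands for loss of the complement C3a receptor, encoded by C3ar1. PS19 mice carry a mutant human tau transgene that the mouse prion protein promoter drives in neurons, as background knowledge of this line. The labels do not say how the hippocampus was dissected, and they leave it unsaid whether every library is another mouse, so the errors below measure only the spread between these libraries.

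The choroid plexus is a folded sheet of epithelium that hangs in the brain ventricles and makes cerebrospinal fluid. Its cells pump ions and water, carry vitamins and hormones into the fluid, and are sealed to each other by tight junctions. The sheet of the lateral ventricle is attached along the fimbria, at the edge of the hippocampus, so that a hippocampal dissection can hold more or less of it. Ependymal cells, which line the ventricle wall, carry motile cilia and lie next to the choroid plexus.

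The classes were chosen by the measured Ttr level of each library, so every difference between them given here is a description of what accompanied Ttr and supports nothing by itself. In the WT libraries numbered 1 to 5, Ttr stood at 1825, 12.2, 1105, 1555 and 63.3 CPM. In the libraries labelled C3aR KO it stood at 2577, 9.70, 57.9, 3006 and 30.2 CPM. In PS19 it stood at 4213, 1236, 39.1, 731 and 3696 CPM, and in PS19/C3aR KO at 3691, 15.1, 38.5, 219 and 3925 CPM. Each genotype therefore held libraries of either class, and the ranges of the 4 genotypes overlapped. The lowest choroid-rich library was PS19 4 at 731 CPM and the highest choroid-poor library was PS19/C3aR KO 4 at 219 CPM. Over all libraries the highest Ttr level was 434 times the lowest, and within the choroid-rich class 5.76 times the lowest. The class means were 2506 ± 1269 CPM (SD, n = 11) and 53.9 ± 64.8 CPM (SD, n = 9), a ratio of 46.5. Even the lowest library held 374 Ttr counts, so no library lacked the transcript. In whole tissue, fewer cells of a type and less RNA per cell cannot be told apart.

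**Figure D1:**
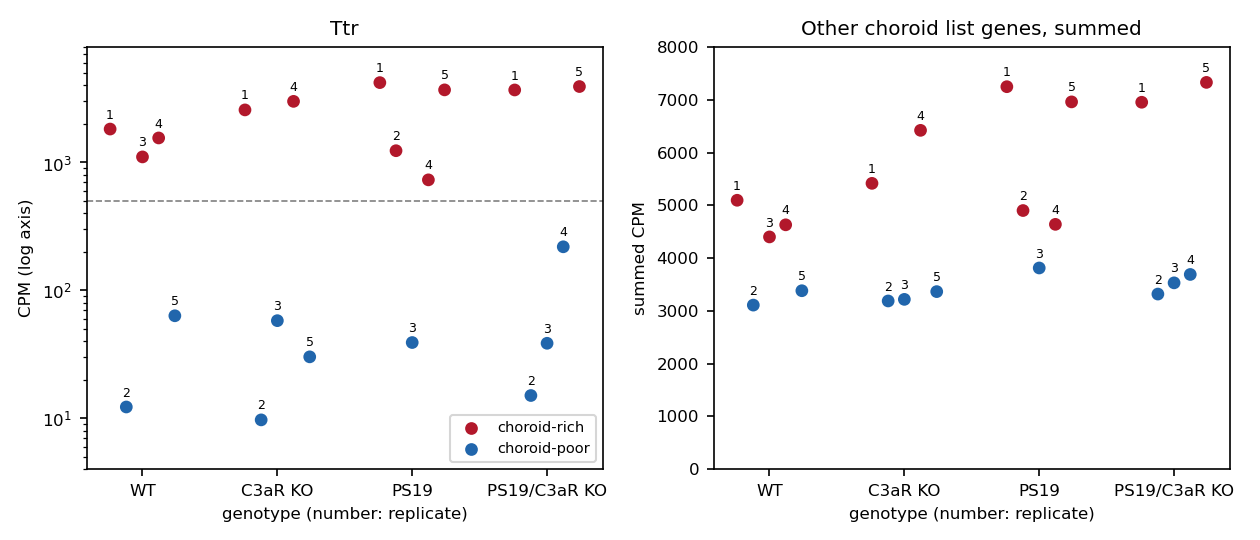
Left, Ttr in CPM on a log axis for each library by genotype, with the 500 CPM line dashed. Right, the summed CPM of the other choroid list genes. Each point is 1 library, numbered by replicate, red for choroid-rich and blue for choroid-poor, and no choroid-poor library reaches the lowest choroid-rich one in either plot.

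The choroid-rich libraries were 3 of 5 in WT, 2 of 5 in the libraries labelled C3aR KO, 4 of 5 in PS19 and 2 of 5 in PS19/C3aR KO. Fisher's exact test (two-sided) on this 4 by 2 table gave p = 0.762, which does not show that the shares are equal. Library 1 was choroid-rich in all 4 genotypes and library 2 was choroid-poor in all but PS19. The summed level of the other genes of the choroid lists ran from 4400 to 7329 CPM in the choroid-rich libraries and from 3108 to 3812 CPM in the choroid-poor ones. Ranked by that sum and cut at the number of choroid-rich libraries that Ttr gave, 20 of 20 libraries fell in the same class. The cut was thus borrowed from Ttr, and the lists were chosen with earlier results known, so this is no independent check.

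Across the series, libraries held 33885850 to 47828111 gene counts, with 33914416 to 43044438 in the choroid-rich class. Rn45s, a ribosomal precursor RNA, took 0.873 to 4.48% of gene counts in choroid-rich and 1.04 to 3.61% in choroid-poor libraries. Reads outside annotated exons were 17.4 to 24.9% of all gene, ambiguous and non-exon counts in choroid-rich and 18.3 to 25.4% in choroid-poor libraries. C3ar1, the gene named in the KO label, went against that label: it stood at 1.66 to 2.34 CPM in WT and at 14.4 to 18.0 CPM in the libraries labelled C3aR KO. It was 15.6 to 18.7 CPM in PS19/C3aR KO, above the 4.86 to 13.97 CPM of PS19. Genotype names stand for the labels throughout. No direction between classes rests on them, since each genotype is its own block.

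With genotype as a block, 971 of 16902 genes (5.74%) were higher and 804 (4.76%) lower in choroid-rich libraries at an adjusted p below 0.05 in edgeR. Ttr fixed this contrast, so the threshold only sorts genes here. The median log2 difference over all genes was -0.0033, and 190 genes were more than 2-fold higher against 53 more than 2-fold lower. In 77 genes every choroid-rich library was above every choroid-poor one, and in 3 every one was below. The latter were Adcyap1, Pth2r and Snx21, named here after their values were seen. The total of 1775 genes rested on single libraries: it was 3290 without WT 5, 904 without WT 2, 978 without C3aR KO 1, 1176 without C3aR KO 2, 1133 without C3aR KO 4, 1166 without PS19/C3aR KO 1 and 1027 without PS19/C3aR KO 5.

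Choroid plexus genes made up the top of the ranking. Of 88 tested members of the 6 choroid lists, 70 were higher and 1 was lower, beside 5.74% and 4.76% over all genes, with a median log2 difference of 1.07. In 43 of them the classes did not overlap. Leaving out any single library left 62 to 71 members higher.

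Secreted and carrier proteins included Ttr itself, 5.79 higher on the log2 scale (SE 0.56). Folr1, a folate carrier that brings the vitamin into cerebrospinal fluid, ran from 0.156 through a median of 0.502 to 1.35 CPM in choroid-poor libraries. It ran from 5.95 through 12.3 to 27.9 CPM in choroid-rich ones, without overlap, a log2 difference of 4.74 (SE 0.38). F5, coagulation factor V, was 0.623 to 2.96 CPM in choroid-poor and 15.4 to 60.1 CPM in choroid-rich libraries (log2 difference 4.55, SE 0.31). Sostdc1, a secreted antagonist of BMP and Wnt signals, ranged from 0.935 to 4.799 CPM and from 11.6 to 69.8 CPM (4.44, SE 0.36). The lower class was again wholly below the higher one. Kl, the anti-ageing hormone Klotho, had a raised floor: it stood at 9.03 to 28.1 CPM in choroid-poor libraries and 47.7 to 166 CPM in choroid-rich ones (2.68, SE 0.29). Enpp2, which makes lysophosphatidic acid and is also an oligodendrocyte transcript, ran from 130 to 253 CPM and from 559 to 2032 CPM (2.81, SE 0.22). Igf2, a growth factor of the choroid plexus and the meninges, overlapped between classes, at 34.0 to 153 CPM and 109 to 279 CPM (1.2, SE 0.21). In all, 19 of 25 genes of this list were higher, with a median of 1.69.

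Rspo1, which encodes a Wnt-enhancing secreted protein, was the exception among the choroid genes. It was 1.38 to 7.004 CPM (median 4.60) in choroid-poor libraries and 0.845 to 1.60 CPM (median 1.13) in choroid-rich ones. The log2 difference was -1.69 (SE 0.26), the classes overlapped, and the choroid-rich mean was the lower one in all 4 genotypes. With the cortical layer level as a covariate, a fit described below, no choroid gene was called lower. That fit called only 2 of 17071 genes lower, so it cannot decide on Rspo1.

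Ion and water transport gave 13 of 16 genes higher and none lower (median 1.07). Slc4a5, a sodium bicarbonate cotransporter of the apical membrane, was 0.259 to 1.69 CPM (median 0.626) in choroid-poor libraries. It was 6.51 to 35.8 CPM (median 20.2) in choroid-rich ones, which lay entirely above (5.20, SE 0.35). Kcne2, a subunit of potassium channels, was 0.208 to 1.67 CPM and 5.23 to 27.8 CPM (4.97, SE 0.33). Aqp1, the apical water channel, was 0.355 to 1.44 CPM and 5.47 to 26.7 CPM (4.57, SE 0.33). For these genes, too, the lowest choroid-rich library was PS19 4, the one nearest the Ttr threshold. Kcnj13, a potassium channel, and Clic6, a chloride channel protein, differed by 3.58 (SE 0.30) and 3.55 (SE 0.32). Transporters that neurons and glia also make differed less: Slc12a2, the sodium-potassium-chloride cotransporter, by 0.45 (SE 0.07), and Atp1b1, a sodium pump subunit, by 0.12 (SE 0.04).

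Solute transporters followed, with 14 of 18 higher and none lower (median 0.79). Steap1, a metalloreductase, stood at 0.0719 to 0.493 CPM in choroid-poor and 0.987 to 6.20 CPM in choroid-rich libraries (4.23, SE 0.41). Slco1a5, an organic anion transporter, was at 0 to 0.240 CPM, no more than 9 counts, and at 0.320 to 1.32 CPM (3.17, SE 0.43). Slc22a8, an organic anion transporter that brain endothelium also makes, did not pass the threshold, at a log2 difference of 0.0023 (SE 0.09).

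Among receptors and surface enzymes, 8 of 9 tested genes were higher (median 0.70). Tmem72, a membrane protein, ran from 0.0958 to 0.771 CPM in choroid-poor and from 3.52 to 17.5 CPM in choroid-rich libraries, the largest difference after Ttr (5.47, SE 0.36). Prlr, the prolactin receptor, ran from 3.32 to 8.05 CPM and from 18.4 to 67.4 CPM (3.15, SE 0.26). Tmem27, also called collectrin, had at most 4 counts in any choroid-poor library and 0.133 to 0.955 CPM in the choroid-rich ones (3.31, SE 0.41). Htr2c, a serotonin receptor that the choroid plexus shares with neurons, differed by 0.70 (SE 0.15).

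Junction and skeleton genes gave 11 of 13 higher (median 1.16). Cldn2, the pore-forming claudin of leaky epithelia, was 0.182 to 1.11 CPM in choroid-poor and 4.61 to 23.0 CPM in choroid-rich libraries (4.50, SE 0.35). Cdh3, P-cadherin, differed by 3.88 (SE 0.37) and Krt18, a keratin of simple epithelia, by 2.92 (SE 0.30). Of 7 tested transcription factor genes, 5 were higher (median 0.95). Lmx1a, a factor of the roof plate from which the choroid plexus develops, ran from 0.0240 to 0.507 CPM and from 0.717 to 2.32 CPM (3.06, SE 0.41). Otx2, needed for choroid plexus identity, ran from 0.285 to 5.27 CPM and from 5.99 to 20.1 CPM (2.68, SE 0.30). In these 2 genes the classes did not overlap.

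**Figure D2:**
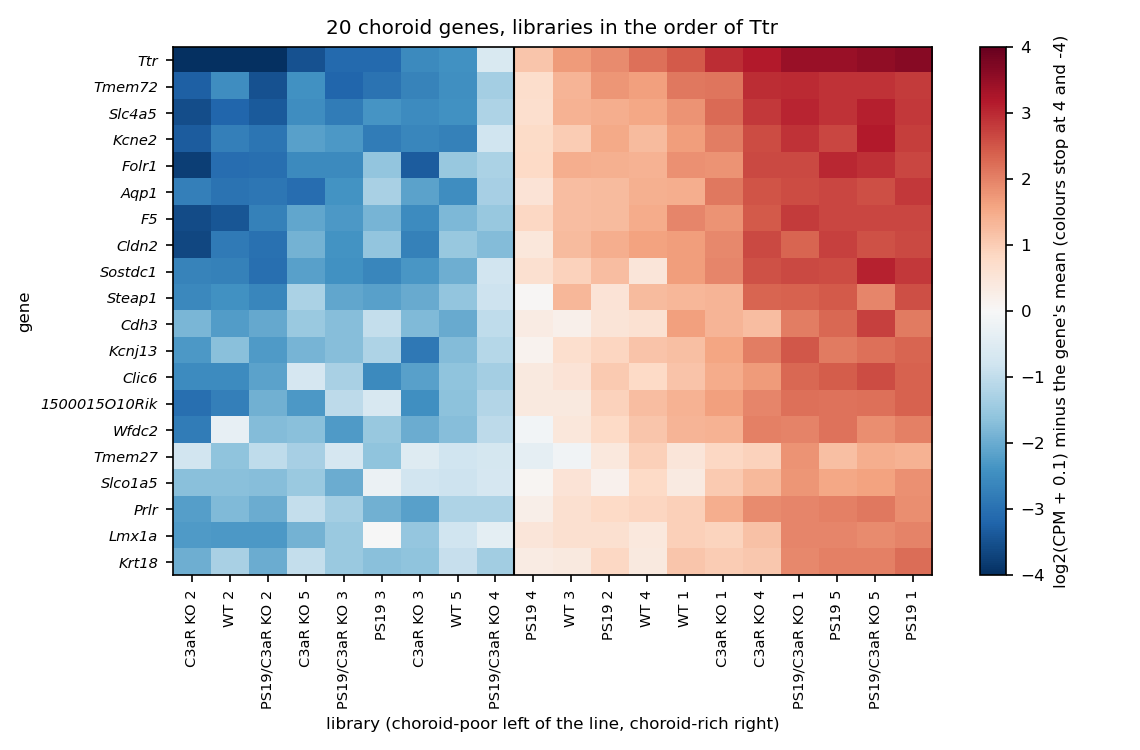
The 20 choroid list genes with the largest difference, in log2(CPM + 0.1) minus each gene's mean, for the 20 libraries in the order of Ttr. Choroid-poor libraries lie left of the line. PS19/C3aR KO 4, the last choroid-poor library, is paler than the others for Ttr, Tmem72, Slc4a5, Kcne2 and Sostdc1, and PS19 4 is the palest choroid-rich library for most genes.

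Inside the choroid-rich class the proportion of choroid genes to Ttr varied less than Ttr itself. Slc4a5 gave 7.02 to 9.87 counts per 1000 Ttr counts over the 11 libraries, and Kcnj13 gave 7.42 to 9.80, while Ttr itself varied 5.76-fold. The widest of the 20 was Lmx1a, at 0.399 to 1.02 per 1000, a 2.56-fold range. Pearson's r to Ttr was computed in log2 CPM centred within genotype over the 20 libraries. The 10 genes most like Ttr were Slc4a5, F5, Kcne2, Folr1, Tmem72, Cldn2, Steap1, Sostdc1, Aqp1 and Kl, at r of 0.98 to 0.99, all of them members of the choroid lists. These points share library and depth, and the class step itself gives much of the r. The r values within a class, here and below, were not centred within genotype. Within the 11 choroid-rich libraries r was 0.98 for Slc4a5, 0.99 for Aqp1 and 0.99 for Kl. Within the 9 choroid-poor libraries it was 0.96 for Slc4a5, 0.86 for F5 and 0.72 for Aqp1, whose counts there were 16 to 66.

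Stretches before annotated starts of these genes were searched, because the genes moved together with Ttr across libraries. RefSeq windows were matched for 8 of the 10, with 9 windows in all, and 3 of the 9 held the X-box core given below. Kcne2 and Aqp1 are shown as examples with a match, with 1 of the 2 Kcne2 windows holding it, and Slc4a5, the gene most like Ttr, as an example without one. The windows are the 250 bases upstream of starts that RefSeq gives on GRCm38.p6, the build of mm10, for genes on the plus strand. A gene can have several starts, and the Slc4a5 window lies inside the gene (83207580 to 83304945). No window before the outer start of Slc4a5 was among those matched. Capitals mark the letters GTTGCC or their reverse complement GGCAAC, the core of the X-box that RFX factors are known to bind in ciliary gene promoters.
Slc4a5, chr6:83237125-83237374: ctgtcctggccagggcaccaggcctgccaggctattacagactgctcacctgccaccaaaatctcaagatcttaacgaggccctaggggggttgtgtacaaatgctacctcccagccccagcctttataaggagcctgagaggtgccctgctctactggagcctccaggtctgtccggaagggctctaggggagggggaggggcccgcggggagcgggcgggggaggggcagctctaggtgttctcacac
Kcne2, chr16:92292139-92292388: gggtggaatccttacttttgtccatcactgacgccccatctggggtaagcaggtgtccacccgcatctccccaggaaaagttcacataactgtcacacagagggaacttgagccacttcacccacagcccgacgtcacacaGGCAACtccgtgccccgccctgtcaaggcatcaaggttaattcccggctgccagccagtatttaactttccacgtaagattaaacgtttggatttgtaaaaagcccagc
Aqp1, chr6:55336049-55336298: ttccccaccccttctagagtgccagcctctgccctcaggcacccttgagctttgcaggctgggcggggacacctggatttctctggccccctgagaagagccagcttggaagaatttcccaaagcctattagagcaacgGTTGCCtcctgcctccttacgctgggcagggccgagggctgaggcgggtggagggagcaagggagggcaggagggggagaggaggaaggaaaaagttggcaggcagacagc
Such a match is a description of letters and not of a binding site. Over all 32851 windows, 10.4% held GTTGCC on either strand. RefSeq windows were matched for 64 of the 88 choroid genes, and 10 of their 87 windows held it (11.5%). Cores of OTX factors (TAATCC) and homeodomain factors (TAATTA) were searched too, on both strands. TAATCC was in 5 of the 87 windows (5.75%) beside 6.25% of all, and TAATTA in 5 (5.75%) beside 4.84%. With that many genes unmatched these checks are void for the lists as a whole.

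Ependymal and motile cilia genes accompanied the choroid genes at smaller differences. Of 34 tested, 16 were higher and none lower, beside 5.74% and 4.76% of all genes. In all, 33 of 34 were positive, with a median of 0.89. The classes were separate for 1 of them, Mlf1, and the summed level overlapped, at 102 to 196 CPM in choroid-rich and 65.3 to 121 CPM in choroid-poor libraries. The count of 16 was 25 without WT 5 and 10 without PS19/C3aR KO 5. Pifo, a ciliary protein, was 0.0857 to 0.797 CPM in choroid-poor and 0.742 to 2.62 CPM in choroid-rich libraries (2.0, SE 0.36). Mlf1 was 0.163 to 0.981 CPM and 1.17 to 3.23 CPM (1.69, SE 0.28). Cfap126, a basal body protein, was 0.441 to 1.86 CPM and 1.79 to 5.39 CPM (1.47, SE 0.25), and Lrrc23, a radial spoke protein, 1.58 to 3.52 CPM and 2.995 to 9.03 CPM (1.15, SE 0.21). Within the choroid-rich class r to Ttr was 0.78 for Mlf1 and 0.66 for Pifo, and within the choroid-poor class 0.18 and -0.16. Foxj1, the master factor of motile cilia, which stands in the choroid list, differed by 0.95 (SE 0.24).

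The X-box core was also looked for before annotated starts of the cilia genes. It was present in 15 of 36 windows (41.7%) of the 30 cilia genes with a window, beside 10.4% of all windows, and genes with several starts have several windows. The searched cores TAATCC of OTX factors and TAATTA of homeodomain factors, both strands, which share the letters TAAT, were in 8.33% and 0% of these windows beside 6.25% and 4.84% of all. The windows of Mlf1 (plus strand) and Lrrc23 (minus strand) are shown. The Lrrc23 window lies inside the gene (124769869 to 124780438). Of the 4 cilia genes named above, Mlf1, Lrrc23 and Pifo have a window with the core, Pifo in 1 of 2 windows, and the windows of Cfap126 hold none. Capitals mark GTTGCC or GGCAAC and also GGATTA, the reverse complement of TAATCC.
Mlf1, chr3:67373847-67374096: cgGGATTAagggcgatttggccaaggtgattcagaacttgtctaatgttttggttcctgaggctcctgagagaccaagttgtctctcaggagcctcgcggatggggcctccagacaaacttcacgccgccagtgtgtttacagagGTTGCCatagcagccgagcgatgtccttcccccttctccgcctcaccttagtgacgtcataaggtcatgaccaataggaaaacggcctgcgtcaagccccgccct
Lrrc23, chr6:124779728-124779977: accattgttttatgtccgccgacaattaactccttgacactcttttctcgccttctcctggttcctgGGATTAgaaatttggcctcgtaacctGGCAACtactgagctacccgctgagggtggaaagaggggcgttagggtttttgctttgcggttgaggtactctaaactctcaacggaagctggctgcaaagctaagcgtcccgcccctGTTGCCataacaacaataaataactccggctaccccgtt
The Lrrc23 window holds the X-box core on each strand.

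Genes of the cell types that form stroma and vessels, which the choroid plexus also holds, were mostly not called. Over all genes 5.74% were higher and 4.76% lower, so lists this short would hold few calls at that share. Among 25 fibroblast genes 1 was higher and 1 lower (median -0.06). The higher one was Postn, a matrix protein, at 0.664 to 4.12 CPM in choroid-poor and 2.67 to 12.5 CPM in choroid-rich libraries (2.34, SE 0.39). The overlap came from WT 5, and r to Ttr within the choroid-rich class was 0.94. The lower one was Igfbp6 (-0.58, SE 0.11). The main fibrillar collagen genes Col1a1 (-0.17, SE 0.18) and Col3a1 (0.15, SE 0.21) did not pass the threshold. Among 23 endothelial genes Ramp2 was higher (0.27, SE 0.08) and Plvap, a diaphragm protein of fenestrated capillaries, lower (-0.48, SE 0.14). Plvap stood at 9.01 to 18.4 CPM in choroid-poor and 7.22 to 12.7 CPM in choroid-rich libraries. None of 16 mural cell genes and none of 12 border macrophage genes passed the threshold, with medians of -0.02 and -0.17. Globin genes of blood were at 0 in every library, which covers 4 of 5 members of that list. The other member, Alas2, was found in every library, at 0.523 to 2.44 CPM in choroid-poor and 0.429 to 1.01 CPM in choroid-rich ones. It did not pass the threshold (-0.47, SE 0.24). Why the globin counts were 0 was not tested, so they do not show that blood was absent.

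**Figure D3:**
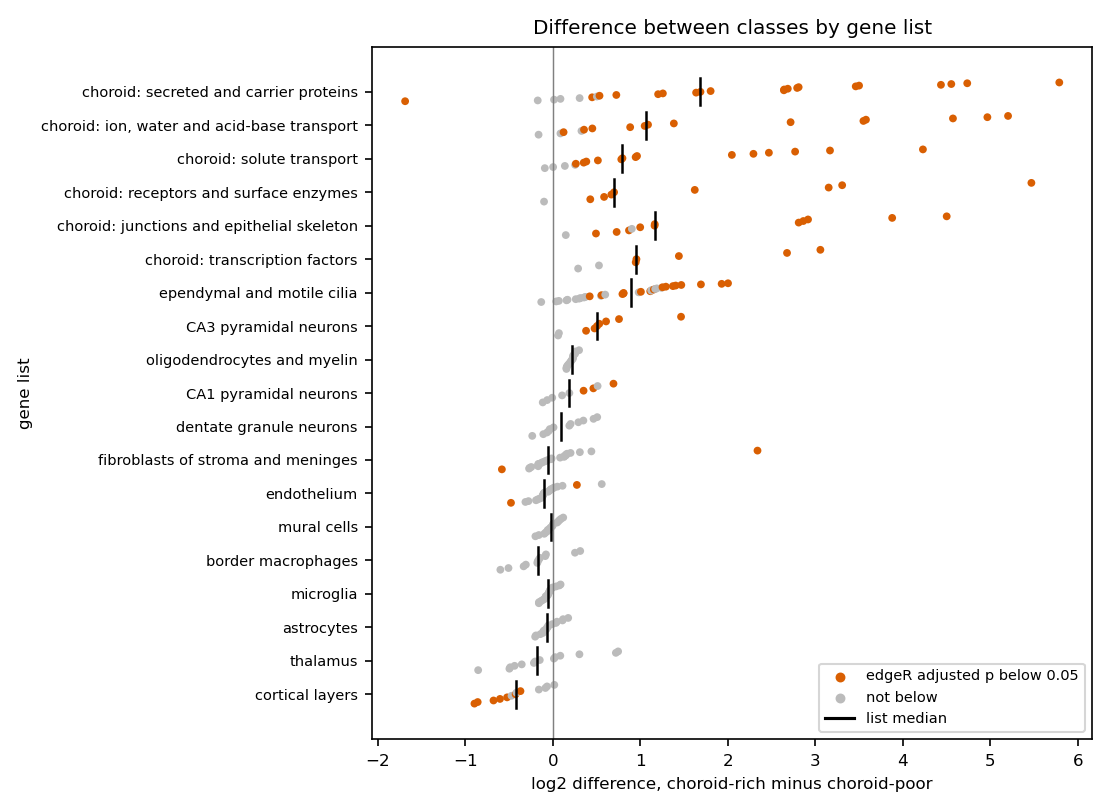
The log2 difference of each tested gene, choroid-rich minus choroid-poor, in 19 gene lists, with orange for an edgeR adjusted p below 0.05, grey for the rest and a black bar for the list median. The 6 choroid lists and the cilia list lie to the right of 0 and cortical layer genes to the left, the medians of the microglia, astrocyte and mural cell lists lie near 0, and oligodendrocyte genes all lie slightly to the right.

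Genes of cortical layers were lower in choroid-rich libraries, 7 of 13 beside 4.76% of all genes, with none higher (median -0.43). The count was 3 without WT 2 and 3 without PS19/C3aR KO 5. Their summed level was 518 to 606 CPM (median 538) in choroid-rich and 490 to 877 CPM (median 782) in choroid-poor libraries. Of the choroid-poor libraries, all but WT 5 lay above every choroid-rich one, and WT 5 lay below them all. Lamp5, a gene of upper cortical layers and some interneurons, was 27.6 to 104 CPM (median 73.4) in choroid-poor and 27.9 to 38.0 CPM (median 29.9) in choroid-rich libraries (-0.90, SE 0.19). Cux2, an upper layer transcription factor, was 47.2 to 108 CPM and 42.5 to 59.1 CPM (-0.61, SE 0.12). Tbr1, a deep layer factor, was 58.8 to 122 CPM and 54.5 to 72.4 CPM (-0.52, SE 0.11). In each of these genes WT 5 gave the lowest choroid-poor value. Vip, an interneuron peptide, was lower (-0.70, SE 0.13), as the only called gene of 14 in the inhibitory neuron list (median -0.07). Dcx, a protein of young neurons, was lower (-0.62, SE 0.17) as the only called gene of 10 in the neurogenic niche list, where 8 of 10 were positive (median 0.11).

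CA3 pyramidal genes showed the opposite order, 7 of 9 higher beside 5.74% of all genes, and none lower (median 0.50). The summed level was 735 to 838 CPM in choroid-rich and 588 to 796 CPM in choroid-poor libraries, where WT 5 was the highest. Grik4, a kainate receptor subunit, was 32.9 to 66.5 CPM in choroid-poor and 53.3 to 74.4 CPM in choroid-rich libraries (0.53, SE 0.10). Prss35, a protease-like protein of CA3, was 4.60 to 10.8 CPM and 6.95 to 11.01 CPM (0.61, SE 0.11). Homer3, a synaptic scaffold protein, was 9.06 to 27.2 CPM and 24.2 to 33.1 CPM (0.76, SE 0.19). Of the 9 CA1 genes reported here 3 were higher, beside the same 5.74%, Fibcd1 most (0.69, SE 0.13). None of 12 dentate granule genes passed the threshold. Within the choroid-rich class r to Ttr was 0.07 for Grik4, 0.01 for Homer3 and 0.17 for Prss35. It was 0.03 for Lamp5, -0.31 for Tbr1 and -0.57 for Cux2, and among CA1 genes -0.01 for Fibcd1 and 0.59 for Man1a. Within the choroid-poor class it was 0.41 for Grik4 and -0.64 for Lamp5.

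**Figure D4:**
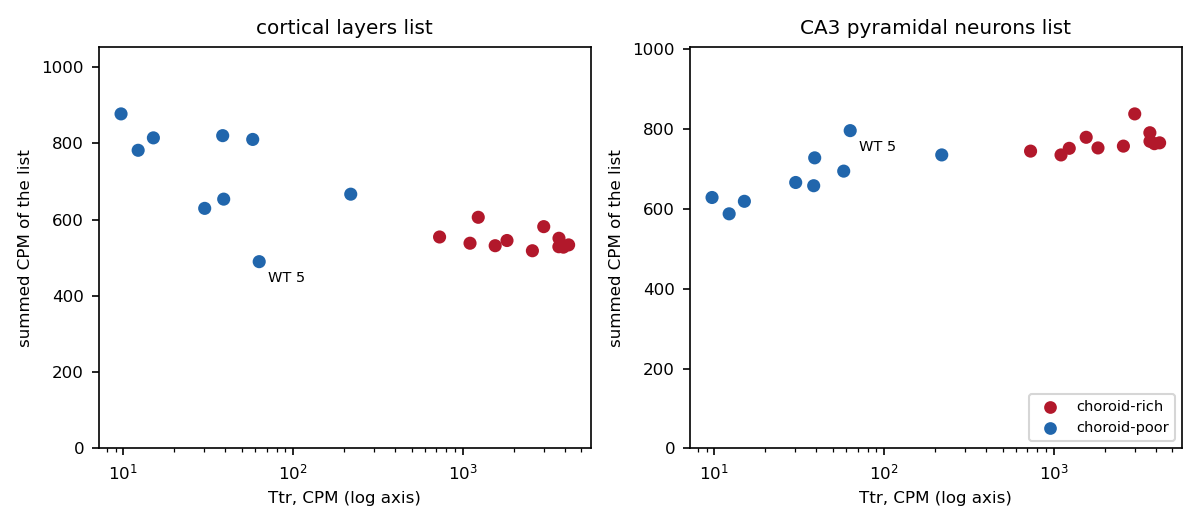
Summed CPM of the cortical layer list (left) and the CA3 list (right) against Ttr in CPM on a log axis, 1 point a library. Choroid-rich libraries (red) sit in a narrow band, at 518 to 606 CPM for the cortical list. Choroid-poor libraries (blue) spread, and WT 5 is choroid-poor with the lowest cortical and a high CA3 sum.

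A fit that took the summed cortical layer level of each library as a covariate, added after the data were seen, left 39 genes higher and 2 lower. Of the 39, 30 were members of the choroid lists. The median of the choroid lists was then 0.85, that of the cilia list 0.34 and that of CA3 genes 0.09. The cortical genes, at a median of 0.01, make up the covariate themselves, so a value near 0 is built in. The class and the cortical level move together across libraries, and how each arose was not tested.

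Called genes outside all lists were ranked without predicted genes (Gm and Rik names) and at a mean log2 CPM no lower than 1. The highest of these genes were Prr32 (3.55, SE 0.40), Wdr86 (2.84, SE 0.29), Drc7 (2.71, SE 0.30) and Col4a3 (2.30, SE 0.29). Rbm47, Wdr63, Col4a4, Pla2g5, Tjp3 and Ttc21a followed at 2.30 to 1.61. Prr32 was 0.104 to 0.774 CPM in choroid-poor and 0.933 to 8.34 CPM in choroid-rich libraries, and Drc7, a subunit of the ciliary dynein regulatory complex, 0.979 to 3.77 CPM and 6.64 to 25.0 CPM. In both the classes were separate. Col4a3 and Col4a4, chains of a basement membrane collagen of epithelia, differed by 2.30 and 2.03 (SE 0.19), and Tjp3, a tight junction scaffold, by 1.72 (SE 0.26). The lowest genes were Dkkl1 (-2.05, SE 0.39), Igfn1 (-1.84, SE 0.49), Rasgef1c (-1.62, SE 0.26) and Egr2, an activity-induced transcription factor (-1.61, SE 0.40). Col24a1, Apold1, Cckbr, Ovol2, Atp6ap1l and BC030499 followed at -1.44 to -1.25. Cckbr, a cholecystokinin receptor, was 8.93 to 47.9 CPM in choroid-poor and 8.56 to 16.1 CPM in choroid-rich libraries, with WT 5 the lowest choroid-poor library. Igfn1 spanned 0.704 to 30.7 CPM among choroid-poor libraries, and its lowest value was again WT 5.

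No microglia or astrocyte gene passed the threshold (0 of 20 and 0 of 16), with medians of -0.05 and -0.06. With 1 library left out, up to 4 astrocyte genes were lower, though none was in 17 of 20 fits. DESeq2 called 3 astrocyte genes lower. Over all genes 5.74% were higher and 4.76% lower. All 16 oligodendrocyte genes were positive at 0.15 to 0.30 (median 0.22), and none passed; without WT 5, 6 did. Among 16 interferon response genes 2 were higher, beside 5.74% of all genes: Bst2 (0.84, SE 0.22) and Ifi27 (0.45, SE 0.10). In the medial habenula list 1 of 10, Chrnb4, was higher (0.91, SE 0.28), where PS19 1 held 3.74 CPM against at most 1.42 CPM elsewhere. The striatum list gave 2 of 11 higher, beside the same 5.74%, Trpc4 (0.42, SE 0.09) and Ppp1r1b (0.36, SE 0.08). None of 14 thalamus genes passed, and of 23 respiratory chain genes Atp5g1 alone did (0.11, SE 0.03). At a Ttr threshold of 100 CPM no gene of the interferon, habenula, striatum or respiratory chain lists was called higher. There 1 gene of the striatum list was called lower. With 1 library left out, none was higher in 14 of 20 fits for the habenula list and in 18 of 20 for the respiratory chain. In the same fits the interferon list held 1 to 2 higher genes and the striatum list 2 to 3.

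Whether the class difference had another size in some genotype was asked with interaction terms. No gene of 17424 (0%) passed at an adjusted p below 0.05 in edgeR, and 728 had an unadjusted p under 0.05. No other tool was run for the interaction. The count was 3 without WT 5 and 2 without C3aR KO 5. With 1 choroid-poor PS19 library the PS19 term rests on that library. For each of the 20 choroid list genes with the largest difference, the choroid-rich mean was the higher one in 4 of 4 genotypes. This follows from their choice, since the classes did not overlap in any of them.

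The rule did not use genotype, so genotype comparisons were fitted with and without the class. They rest on the genotype labels, which C3ar1 went against in the libraries labelled as KO. PS19 against WT changed 2142 of 16902 genes (12.7%, edgeR adjusted p below 0.05) with the class in the fit, and 1803 of 16657 (10.8%) without it. Of these, 1754 were called in both fits, 371 with the class only and 49 without it only, and none had opposite directions. With the class in the fit 1404 genes rose and 738 fell. The count with the class was 1089 without PS19 3, 1307 without WT 4 and 204 once the share of Rn45s was in the fit.

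For choroid genes the class, being cut from Ttr, lowers the standard errors of Ttr and of genes that track it by construction, so their values in the 2 fits are a description. Ttr in PS19 minus WT was 1.05 on the log2 scale (SE 1.57) without the class and 0.43 (SE 0.63) with it. Slc4a5 was 0.98 (SE 1.30) and 0.51 (SE 0.41), and Aqp1 1.07 (SE 1.21) and 0.76 (SE 0.39). None of the 20 choroid genes described passed in either fit. The median over the 88 choroid genes was 0.62 without the class and 0.31 with it. In the fit with the class 7 of the 88 rose, beside 1404 of all 16902 genes, a similar share. They were Tcn2, Trf, Fxyd1, Ezr, Slc37a2, Car14 and Slc12a2, named after their values were seen. Tcn2, the transcobalamin that carries vitamin B12 in fluid, rose by 0.79 (SE 0.12, edgeR adjusted p = 0.000403) and Trf, transferrin, by 0.86 (SE 0.14, adjusted p = 0.000963). Between the classes Trf (0.31), Fxyd1 (0.33) and Ezr (0.15) did not pass, so these genes did not clearly go with choroid content. Car14, a carbonic anhydrase, rose by 0.57 (SE 0.16, adjusted p = 0.0255) with the class, and its adjusted p was 0.179 without it. Slc12a2 and Slc37a2 likewise passed with the class only.

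**Figure D5:**
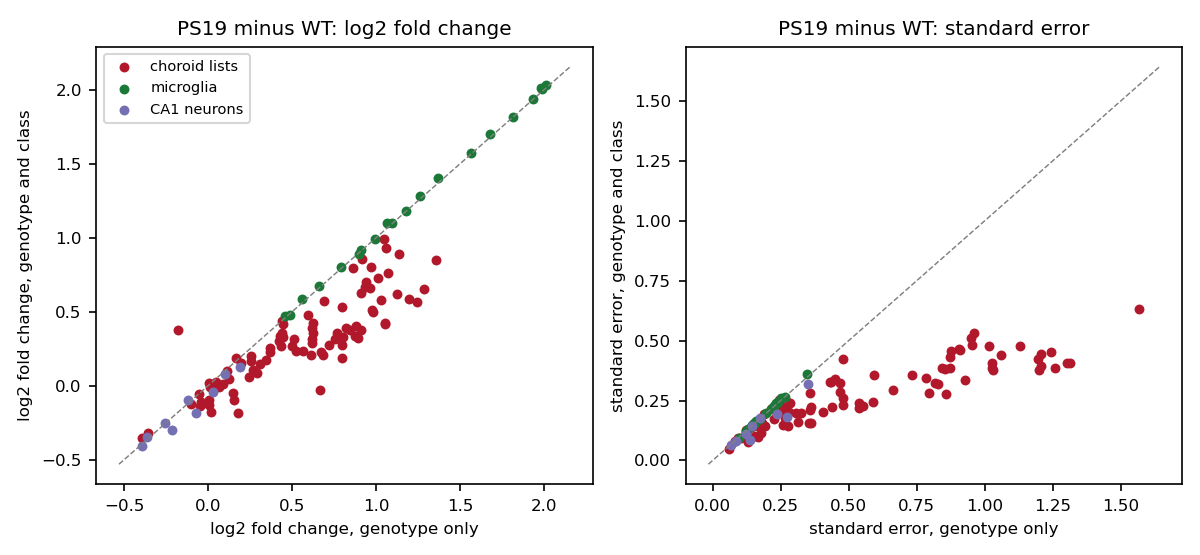
PS19 minus WT for choroid (red), microglia (green) and CA1 (purple) list genes, with genotype alone on the x axis and genotype plus class on the y axis. The left plot gives log2 fold changes and the right plot their standard errors, with equality dashed. Choroid genes fall below the line in the right plot, Ttr from 1.57 to 0.63, which the cut on Ttr fixes.

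Genes that the study is built around had near-equal values in both fits. In PS19 minus WT, Prnp, which shares its promoter with the transgene, rose by 1.08 with the class and 1.09 without it (edgeR adjusted p = 1.36e-11 with the class). Gfap, the astrocyte filament, rose by 2.41 and 2.42, C3ar1 by 2.31 and 2.31, C3, the precursor of the C3a ligand, by 2.79 and 2.81, and Mapt by 0.23 and 0.23. All 5 passed in either fit. All 20 microglia genes rose in either fit. Among genes called in 1 of the fits, the log2 fold change moved most for Ngp, a neutrophil granule protein, from 3.998 (adjusted p = 0.0441) to 3.29 (adjusted p = 0.0746). Ngp rested on PS19 3, at 16.2 CPM against at most 0.4 CPM in the other PS19 libraries, and was -0.13 without it. Xlr3b, Maff, Rgs1 and Gem passed only with the class. Maff, a stress-induced transcription factor, was 0.75 (adjusted p = 0.248) without the class and 1.05 (adjusted p = 0.0244) with it.

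The libraries labelled PS19/C3aR KO against PS19 differed in 16 genes (0.0947%, edgeR adjusted p below 0.05) with the class, 7 up and 9 down, and 42 (0.252%) without it. DESeq2 called 330 in the same design, 83 up and 247 down. These comparisons share the PS19 libraries with PS19 minus WT. The choroid-rich class held 4 of 5 PS19 and 2 of 5 PS19/C3aR KO libraries. The median of the choroid genes was -0.18 without the class and 0.12 with it, and none of the 88 passed in either fit. Ttr was -0.33 (SE 1.55) without and 0.89 (SE 0.65) with the class, and Kcne2 -0.05 (SE 1.22) and 0.95 (SE 0.39). The 16 calls became 464 without PS19 5 and 3 without PS19 3. C3ar1 was 0.71 (SE 0.18, adjusted p = 0.113) with the class, above PS19 in the libraries labelled PS19/C3aR KO, and Gfap -0.86 (SE 0.29, adjusted p = 0.197).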

How the data were processed

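PolyA RNA of mouse hippocampus was sequenced as paired 76-base reads. The authors aligned them to mm10 with TopHat2 2.0.9 and counted reads over the union of exons of each gene with HTSeq, per the labels' protocols and the submitters' processing notes. The deposited values are whole-number counts per gene, not length-normalised, for 24513 genes. Whether strand was used in counting is not given in the sources used here. The 5 summary lines were left out of totals.

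CPM divides a count by all gene counts of its library. The rule takes Ttr at 500 CPM. The test is edgeR 4.0.16 quasi-likelihood (R 4.3.3) on counts, with TMM scaling, filterByExpr (minimum count 10, total 15), genotype and class as terms, and Benjamini-Hochberg adjustment at 0.05. Log2 differences, standard errors (the difference over the root of F) and calls come from this fit, on all 20 libraries. The pairing of libraries by replicate number was checked, was only partial, and is not a term of this fit. Alternatives were DESeq2 1.42.0, limma-voom 3.58.1, other scaling, filters, thresholds and covariates, log2 Ttr, and leaving out each library. Scripts were tested on simulated data.

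Named genes are Ttr, the 20 choroid list genes with the highest difference, up to 4 called members of each other list (or the 1 with the lowest p), the 10 highest and 10 lowest called genes outside lists with a mean log2 CPM no lower than 1, the 10 most like Ttr, C3ar1, C3, Prnp, Mapt and Gfap, and 5 genes whose genotype call moved. Other list members are given as examples. Predicted genes (Gm and Rik names) were left out of the 10 highest and 10 lowest. Some list members are not reported here, and the counts of their lists leave them out. The class, its members and the lists were chosen with earlier results of these data known. Upstream windows are from RefSeq.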

Additional observations from a re-analysis of the deposited data

Results flagged for a closer look

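In groups of 4 to 10 libraries, the highest or lowest library was compared with its nearest neighbour relative to the group's range (Dixon's 95% limit). Chance marks about 1 in 20 such groups, and 148 groups were examined, with 21 marks, of which 7 were PS19/C3aR KO 4 and 7 were PS19 3. Many of the groups share libraries, and the choroid genes among them move together. The choroid-poor groups also pool the 4 genotypes, so the rate of 1 in 20 is only a guide.

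PS19/C3aR KO 4 stood far above the other choroid-poor libraries for Ttr at 219.1 CPM (next 63.3), Tmem72 at 0.771 CPM (next 0.314), Slc4a5 at 1.69 CPM (next 0.721), Kcne2 at 1.67 CPM (next 0.585) and Sostdc1 at 4.799 CPM (next 2.06). The same library was the highest for the thalamus gene Ramp3 at 17.7 CPM (next 10.3) and for the summed thalamus list at 651 CPM (next 409).

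PS19 3, the only choroid-poor PS19 library, was the highest choroid-poor library for Pf4 at 1.655 CPM (next 0.750), Siglech at 24.4 CPM (next 16.5) and Gjb6 at 83.7 CPM (next 67.3). It was also the highest for the summed lists of border macrophages at 61.1 CPM (next 38.5), astrocytes at 14470 CPM (next 11080) and neurogenic niche genes at 156.6 CPM (next 132.6). Among the PS19 libraries it stood apart for Ngp at 16.2 CPM (next 0.4).

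WT 5 was the highest choroid-poor library for Postn at 4.12 CPM (next 1.41) and Prss35 at 10.76 CPM (next 6.54). WT 2 was the highest for Col4a3 at 1.59 CPM (next 0.964), the lowest for Atp5g1 at 84.9 CPM (next 91.2), and the lowest WT library for Gfap at 262.1 CPM (next 398.7). C3aR KO 3 was the highest choroid-poor library for Higd1b at 2.89 CPM (next 2.27), and PS19/C3aR KO 3 for Chrnb4 at 1.09 CPM (next 0.667).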

How the results depend on the processing

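The 1775 genes between classes became 1173 once the share of Rn45s was in the fit, 3233 with log2 Ttr in place of the class, and 41 with the cortical layer level as a covariate (added after seeing the data), and 904 to 3290 when 1 library was left out. PS19 minus WT (2142) gave 204 with the Rn45s share, 236 in choroid-poor libraries only, where PS19 has 1 library assumed to vary like the others, and 1089 to 2636 with 1 library left out. PS19/C3aR KO minus PS19 (16) gave 330 with DESeq2, 5 with the Rn45s share, 42 with no class, 47 with log2 Ttr, 46 and 43 at thresholds of 100 and 1000 CPM, 9 in choroid-poor libraries only, and 3 to 464 with 1 library left out. The interaction gave 0 to 3, and the Fisher p 0.365 to 0.805, with 1 library left out. The causes were not tested. Same-numbered libraries paired only in part. Of 30 pairs, 16 had an r over 0.1 (-0.256 to 0.541), and 8 of 20 libraries correlated best with their own number. Library 1 was choroid-rich in every genotype, so number and class overlap in part. A replicate block gave 308 genes between classes (51 of 88 choroid and 0 of 13 cortical layer genes) and 125, 15 up and 110 down, for PS19/C3aR KO minus PS19; it called no choroid gene lower, Rspo1 included, and 0 of 16 interferon genes. The 16 cilia genes were 7 at the 100 CPM threshold.

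Mapt in PS19/C3aR KO minus PS19 changed sign, near 0, with the stricter filter (0.00102), with the replicate block (0.000602), in choroid-poor libraries (0.07252), and in 6 of the 20 fits with 1 library left out (-0.03323 to 0.007387). Ngp in PS19 minus WT ran from -0.1301, without PS19 3, to 3.793 with 1 library left out. With the cortical covariate Lamp5, which is part of that covariate, was 0.01969, Dcx 0.07569 and Igfn1 0.546. Low-count genes such as Tmem27 limit precision in choroid-poor libraries.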
